A study of Mus musculus with 172 samples.

Results

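The presynaptic vesicle release genes are the 67 genes, of 14896 listed in cerebral cortex, whose symbols belong to the synaptotagmin (*Syt*), synapsin (*Syn*), syntaxin (*Stx*), syntaxin-binding (*Stxbp*), SNAP, VAMP, RIM (*Rims*), Munc13 (*Unc13*), SV2, complexin (*Cplx*), bassoon (*Bsn*) and piccolo (*Pclo*) families. They were chosen by symbol and not by any measured value. Of these, 45 were also listed in liver.

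Neurotransmitter leaves a nerve terminal when a synaptic vesicle fuses with the plasma membrane. Vesicles are held at the active zone by the scaffolds bassoon, piccolo and RIM, and are primed by Munc13 together with syntaxin-binding proteins. They fuse when the vesicle SNARE protein synaptobrevin (VAMP) zips onto syntaxin and SNAP-25 in the plasma membrane, a step that complexin restrains and that synaptotagmin triggers when calcium enters. Relatives of these proteins do the same work in other compartments, such as endosomes, the Golgi apparatus, autophagosomes and secretory granules, so that a family name alone does not make a gene presynaptic. *Snap91* carries a matching symbol but encodes AP180, a clathrin adaptor that retrieves vesicles.

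Cortex and liver were taken from adult male mice of the BXD panel, inbred lines that each carry a fixed mixture of the C57BL/6J (B6) and DBA/2J (D2) genomes. Undisturbed mice (Ctr) and mice kept awake by gentle handling for 6 h from light onset (SD) were killed at the same time, at zeitgeber time 6. RNA of up to 3 mice aged 11 to 14 weeks was pooled by line, tissue and condition, and each pool gave 1 library, so a line has no replicate within a condition. The 39 pools per condition came from 33 BXD/RwwJ lines, 2 pools each of B6 and D2 and the 2 reciprocal F1 hybrids (BD-F1 and DB-F1), and 4 BXD/TyJ lines (BXD05, BXD29, BXD29t and BXD32) were kept apart. Bulk RNA of a tissue cannot tell fewer cells of a type from less RNA per cell.

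Libraries held 18995492 to 28998853 counted reads in cortex and 4681101 to 8269401 in liver. All 4 neuronal markers looked for (*Rbfox3*, *Tubb3*, *Map2* and *Nefl*) were listed in cortex, and the hepatocyte markers *Alb*, *Apoa1*, *Ttr* and *Serpina1a* in liver. Among the cortex libraries, BXD90 Ctr stood apart by transcript length. Its 1522 genes with more than 8000 exonic bases were a median of 0.36 below the Ctr mean on the log2 scale and its 2559 genes with fewer than 2000 exonic bases were 0.27 above, a gap of 0.63, against gaps of -0.12 to 0.16 in the 76 libraries of the other pools. BXD05 Ctr, of the BXD/TyJ lines, had a gap of 0.59. BXD56 Ctr had the highest summed level of 4 astrocyte markers (1469 CPM, Ctr median 937) and of 4 striatal markers (246 CPM, Ctr median 103). The summed level of 3 choroid plexus markers was highest in BXD79 SD (403 CPM, SD median 15.6). That of 2 pituitary markers was highest in BXD100 Ctr (59.9 CPM, Ctr median 1.15). BXD90 held the highest change of 17 members and the lowest of 9, and BXD56 the highest of 8 and the lowest of 7, so results that rest on these lines are also given without them.

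In cortex the vesicle release genes moved in both directions after SD, mostly by small amounts. Relative to Ctr, 21 genes were higher and 22 lower at an adjusted p under 0.05, and 24 did not pass. The background is high, since 68.4% of all genes listed passed the same test, 33% higher and 35.4% lower. The median log2 fold change of the members was -0.016 (all genes, -0.0097) and the median absolute change 0.091 (all genes, 0.13). Counting only called genes whose log2 fold change was 0.25 or more in size, 9 members were higher and 5 lower, where 10.2% and 13.3% of all genes were. In 31 or more of the 39 pools, 40 members moved one way (55.2% of all genes). Marker genes of cell types moved too. Of 4 neuronal markers 2 were higher and 1 was lower, of 3 glutamatergic markers 1 was higher and 2 were lower, and of 3 endothelial markers 2 were higher and 1 was lower. Of 3 thalamic markers 1 was higher and 1 was lower, while no listed choroid plexus, pituitary or striatal marker passed. Of 4 astrocyte markers 2 were higher, of 6 GABAergic markers 2 were higher, of 3 oligodendrocyte markers 2 were lower, and of 4 microglial markers 1 was higher and 2 were lower, and their part in the changes of the members was not tested.

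**Figure D1:**
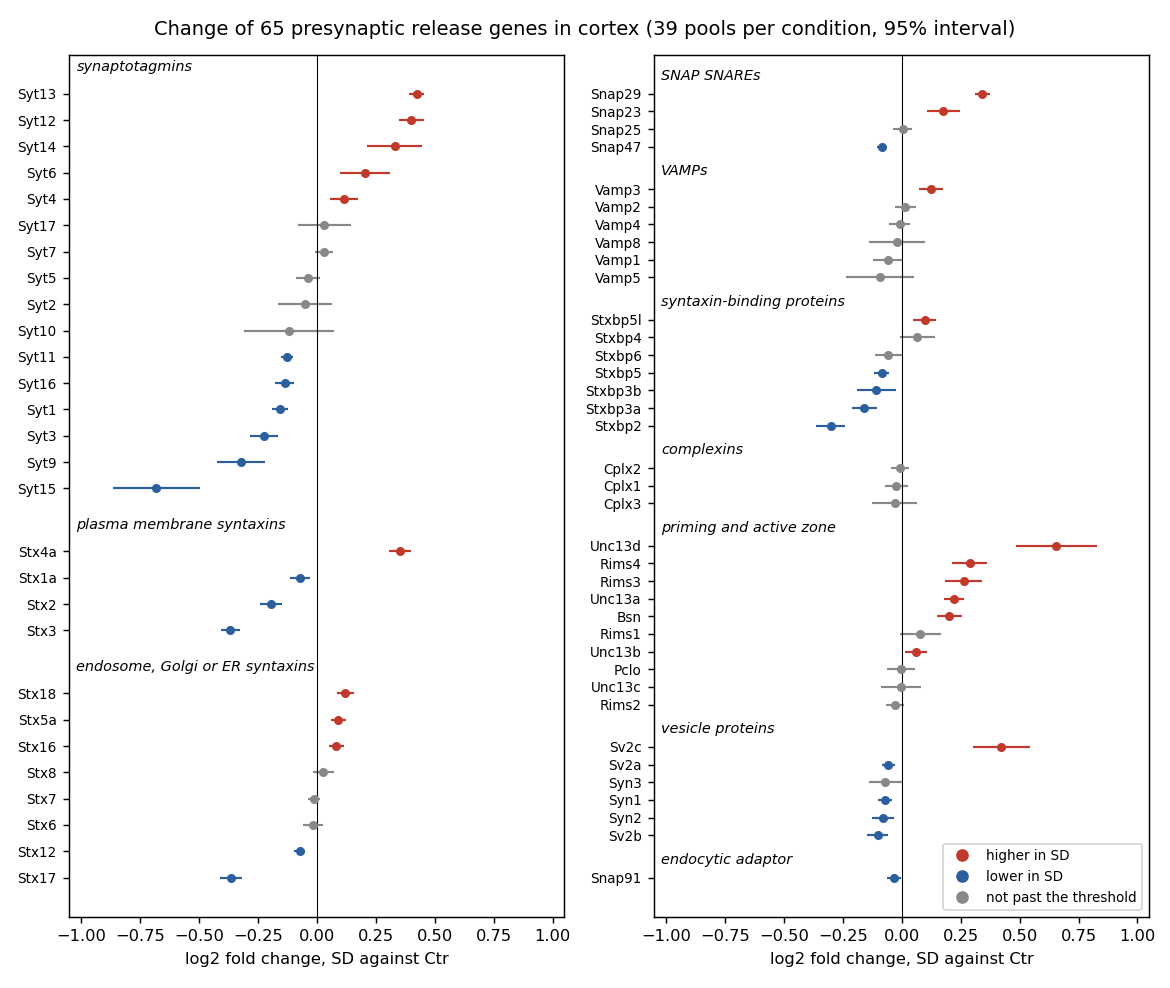
Log2 fold change of 65 of the 67 genes in cortex, SD against Ctr (x axis), with 95% intervals from limma over 39 pools per condition, grouped by role. The 6 called priming and active zone genes lie above 0, up to 0.66, while 4 of the syntaxin-binding protein genes drawn lie below it with an interval that leaves out 0.

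Of the 10 priming and active zone genes, 6 rose, none fell and 4 did not pass (all genes, 33% higher and 35.4% lower), with a median log2 fold change of 0.14. *Unc13a*, which encodes Munc13-1, the main priming factor of cortical synapses, had levels of 8.97 to 9.46 log2 CPM in Ctr (median 9.25) and 9.35 to 9.62 in SD (median 9.48). The ranges overlapped, yet it rose in 39 of 39 pools, by 0.22 ± 0.021 (log2 fold change ± SE, adjusted p = 7.09e-16). *Bsn* (bassoon, a giant scaffold of the active zone) had levels of 9.23 to 9.98 in Ctr (median 9.88) and 9.79 to 10.24 in SD (median 10.04). It also rose in 39 of 39 pools, by 0.20 ± 0.027 (adjusted p = 4.53e-10), with changes from 0.00049 in BXD98 to 0.90 in BXD90. Without BXD90 its change was 0.18 ± 0.023.

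*Rims3* and *Rims4* encode short RIM isoforms that lack the domains by which RIM binds Rab3 and Munc13. *Rims3* rose by 0.26 ± 0.040 (38 of 39 pools, adjusted p = 1.75e-08) and *Rims4* by 0.29 ± 0.037 (38 of 39 pools, adjusted p = 8.31e-11). Without BXD90, *Rims3* rose by 0.24 ± 0.031 and *Rims4* remained called (adjusted p = 1.42e-11). The long isoform *Rims1*, the central organizer of the active zone, gave 0.079 ± 0.043 and did not pass (adjusted p = 0.1001), but passed with the line as a block (adjusted p = 0.0133). *Pclo* (piccolo) gave -0.0025, with a 95% interval from -0.062 to 0.057, beside the rise of its relative *Bsn*. *Unc13d* encodes Munc13-4, known from granule release in immune cells, and had the largest rise of all members, 0.66 ± 0.087 (35 of 39 pools, adjusted p = 2.49e-10). It was also among the 4 members with fewer than 100 reads per library (mean 43.5 reads), and its Ctr levels ran from -0.52 to 1.55 log2 CPM (median 0.59) and its SD levels from 0.40 to 1.69 (median 1.24).

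Among the core SNARE genes of synaptic vesicle fusion, *Snap25* and *Vamp2* barely moved. *Snap25*, the most abundant member per length (537 RPKM in Ctr, the CPM value divided by exonic length in kb), had levels of 11.67 to 12.0045 log2 CPM in Ctr (median 11.84) and 11.65 to 11.99 in SD (median 11.81). Its log2 fold change was 0.0038, with a 95% interval from -0.036 to 0.043. *Vamp2*, which encodes the vesicle SNARE synaptobrevin-2, gave 0.015 (95% interval -0.029 to 0.059). Its Ctr levels were 10.15 to 10.60 (median 10.37) and its SD levels 10.16 to 10.57 (median 10.37), so the groups covered nearly the same range.

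Among the plasma membrane syntaxins, *Stx1a*, whose product is a partner of SNAP-25 in transmitter release, fell by 0.072 ± 0.022 on the log2 scale (31 of 39 pools, adjusted p = 0.00251). *Stx4a*, *Stx3* and *Stx2* moved further. *Stx4a*, whose product serves regulated exocytosis in many cell types, had levels of 5.04 to 5.61 in Ctr (median 5.24) and 5.45 to 5.82 in SD (median 5.59), and rose by 0.35 ± 0.023 (38 of 39 pools, adjusted p = 2.19e-24). *Stx3*, known from photoreceptor terminals and from dendrites, had levels of 5.65 to 6.02 in Ctr (median 5.80) and 5.24 to 5.58 in SD (median 5.42). Every SD pool lay below every Ctr pool, and *Stx3* fell by 0.37 ± 0.020 (adjusted p = 2.69e-28). *Stx2* fell by 0.19 ± 0.024 (adjusted p = 1.77e-11), with 37 of 39 pools lower.

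Among the 8 syntaxins of endosomes, the Golgi apparatus and the endoplasmic reticulum, 3 rose and 2 fell (all genes, 33% higher and 35.4% lower). *Stx16*, *Stx18* and *Stx5a*, which serve traffic through the Golgi apparatus and the endoplasmic reticulum, rose by 0.083, 0.12 and 0.091. *Stx17*, the syntaxin of autophagosomes, was the exception in size and fell by 0.36 ± 0.024 (adjusted p = 4.72e-24). Its levels ran from 5.07 to 5.62 in Ctr (median 5.36) and from 4.72 to 5.15 in SD (median 4.99), and it fell in 39 of 39 pools. *Snap29*, which pairs with syntaxin-17 when autophagosomes fuse with lysosomes, went the other way. It had levels of 4.63 to 4.97 in Ctr (median 4.78) and 4.95 to 5.30 in SD (median 5.11), and rose in 39 of 39 pools, by 0.34 ± 0.017 (adjusted p = 1.53e-31). Of the other SNAP genes, *Snap23*, the widely expressed relative of SNAP-25, rose by 0.18 ± 0.035 (adjusted p = 6.97e-06) and *Snap47* fell by 0.084 ± 0.0099 (adjusted p = 5.90e-12). *Vamp3*, cellubrevin of recycling endosomes, was the single called gene among the 6 VAMPs (68.4% of all genes called). It rose by 0.12 ± 0.025 (adjusted p = 1.11e-05).

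Of the 16 synaptotagmins, 5 rose, 6 fell and 5 did not pass (all genes, 33% higher and 35.4% lower). *Syt1*, the fast calcium sensor of most cortical synapses, had levels of 10.96 to 11.34 in Ctr (median 11.18) and 10.85 to 11.16 in SD (median 11.04), and fell by 0.16 ± 0.018 (37 of 39 pools, adjusted p = 8.37e-13). The largest rises were those of synaptotagmins that do not bind calcium. *Syt13* had levels of 8.19 to 8.43 in Ctr (median 8.27) and 8.52 to 8.83 in SD (median 8.72). No SD pool fell into the Ctr range, and the gene rose by 0.42 ± 0.016, or 34.1% (adjusted p = 2.31e-39). *Syt12* rose in 39 of 39 pools too, by 0.40 ± 0.027 (adjusted p = 1.41e-23), with levels of 5.12 to 5.68 in Ctr and 5.58 to 6.02 in SD. *Syt14* rose by 0.33 ± 0.059 (32 of 39 pools, adjusted p = 8.24e-07), and by 0.29 without BXD90.

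Falls among the synaptotagmins were found for sensors and for further members without known calcium binding. *Syt9*, a fast calcium sensor of a subset of neurons, fell by 0.32 ± 0.052 (37 of 39 pools, adjusted p = 8.28e-08), and *Syt3*, a sensor of high calcium affinity, by 0.22 ± 0.030 (36 of 39 pools, adjusted p = 4.21e-10). *Syt16* fell by 0.14 ± 0.020 (38 of 39 pools, adjusted p = 6.44e-09). *Syt15* had the largest fall of all members, 0.68 ± 0.093 (35 of 39 pools, adjusted p = 6.77e-10), on a mean of 19.4 reads per library, the lowest of the 67. *Syt7*, the sensor of asynchronous release, gave 0.030 ± 0.019 and did not pass (adjusted p = 0.151), but passed with the line as a block (adjusted p = 0.0186).

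**Figure D2:**
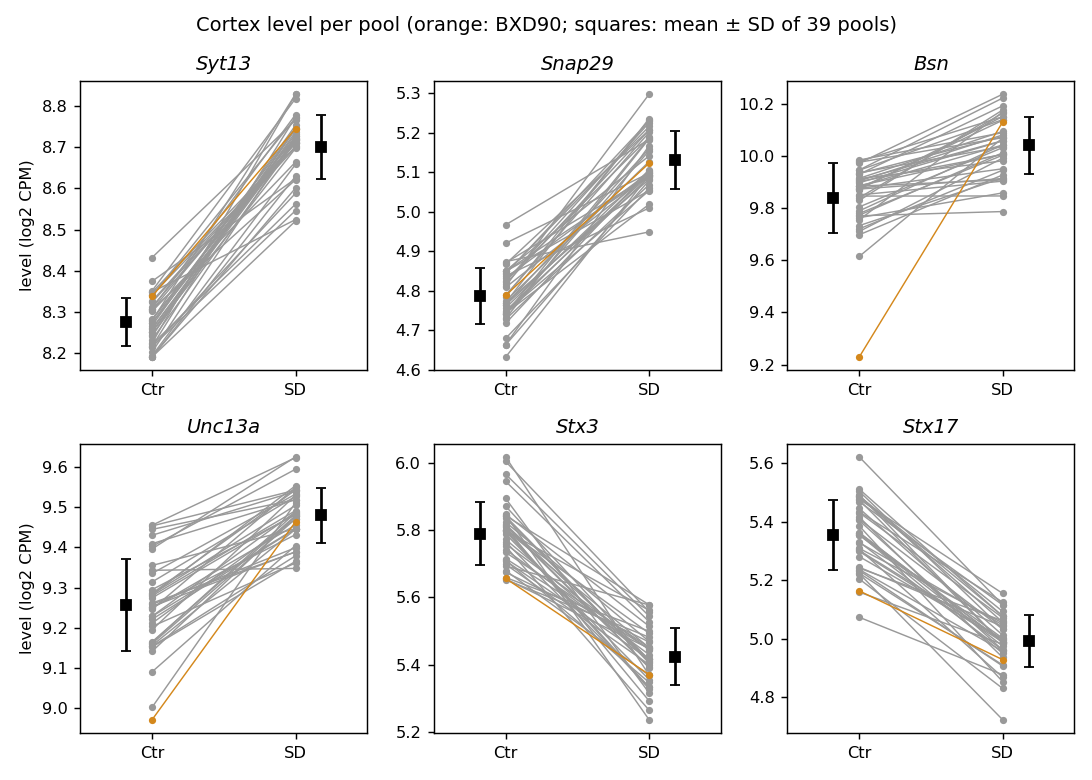
Levels of 6 genes in cortex in log2 CPM (y axis) for the Ctr and SD library of each of 39 pools, joined by lines, with BXD90 in orange and the mean ± SD of the pools as black squares. *Syt13* and *Stx3* separate the conditions with no overlap, and the low Ctr level of BXD90 stands out for *Bsn*.

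Of the 8 syntaxin-binding protein genes, 1 was higher, 5 were lower and 2 did not pass (all genes, 33% higher and 35.4% lower). *Stxbp2* (known from granule release in blood cells) had levels of 5.30 to 5.92 in Ctr (median 5.68) and 5.01 to 5.61 in SD (median 5.40), and fell in 39 of 39 pools, by 0.30 ± 0.030 (adjusted p = 7.63e-15). *Stxbp3a* (whose product is the partner of syntaxin-4) fell by 0.16 ± 0.027 (35 of 39 pools, adjusted p = 2.49e-07), beside the rise of *Stx4a*. Of all 100-base stretches of *Stxbp3a* transcripts, 12.9% are also found in *Stxbp3b* and 39.2% the other way round, so reads of this pair may be divided between them. The tomosyns, which hold back release by occupying syntaxin, split, with *Stxbp5* at -0.085 and *Stxbp5l* at 0.098. *Stxbp5l* had 0.079 without BXD90, and both remained called.

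Of 6 genes for proteins of the vesicle itself, 4 were lower, 1 was higher and 1 did not pass (all genes, 35.4% lower and 33% higher). *Syn1*, which tethers vesicles in the reserve pool, fell by 0.070 ± 0.014 (33 of 39 pools, adjusted p = 1.40e-05), and *Sv2a*, a transmembrane protein of synaptic vesicles and the target of levetiracetam, by 0.057 ± 0.014 (33 of 39 pools, adjusted p = 2.79e-04). *Sv2c*, the least abundant SV2 gene here, rose by 0.42 ± 0.060 (35 of 39 pools, adjusted p = 2.30e-09). Its Ctr levels ran from 2.69 to 4.55 (median 3.86) and its SD levels from 3.78 to 4.61 (median 4.27), and without BXD90, where it changed most, the rise was 0.39. None of the 3 complexins passed the limma test (0 at an adjusted and 0 at an unadjusted p under 0.05). Of all genes, 68.4% passed at the adjusted threshold. *Cplx1* gave -0.023 (95% interval -0.071 to 0.025) and *Cplx2* -0.0064 (95% interval -0.044 to 0.032).

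With the line as a replicate block, 7 more members passed (*Rims1*, *Stxbp4*, *Stxbp6*, *Syn3*, *Syt5*, *Syt7* and *Vamp1*) and none was lost, for 24 higher and 26 lower, while 36.6% of all genes were higher and 39.6% lower under the block (76.3% called). Without BXD90, *Rims2* and *Syn3* passed as well. Without BXD90 and BXD56, *Rims2*, *Stx8* and *Stxbp6* passed and *Snap91*, at -0.033 in all pools, no longer did (adjusted p = 0.0757). In the 4 BXD/TyJ lines, the mean change had the same direction as in the 39 pools for 42 of 43 called members. The exception was *Stxbp5*, which changed by 0.22 in BXD05 and by -0.068, -0.024 and -0.051 in BXD29, BXD29t and BXD32. The share of all genes with the same direction was not counted. Means near 0 were included, such as -4.1e-05 for *Snap91* and -0.0079 for *Sv2b*. The means also hold BXD05, whose Ctr library stood apart by transcript length (gap of 0.59) and whose change was 0.71 for *Bsn* and 1.46 for *Sv2c*.

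Both directions were also found per line. The median change over the 67 members ran from -0.077 in B6-1 to 0.039 in BXD56, while the median over all genes was -0.0065 and -0.0089 in those pools. Over all 39 pools, only *Syt13* and *Stx3* had ranges that did not overlap between conditions (1.4% of all genes). Without BXD90 and BXD56 this held for 4 members, with *Stx17* and *Stx4a* added. Leaving out pools can only narrow the ranges, and the share of all genes was not counted for that smaller set. In all, 8 members moved the same way in all 39 pools (11.2% of all genes).

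**Figure D3:**
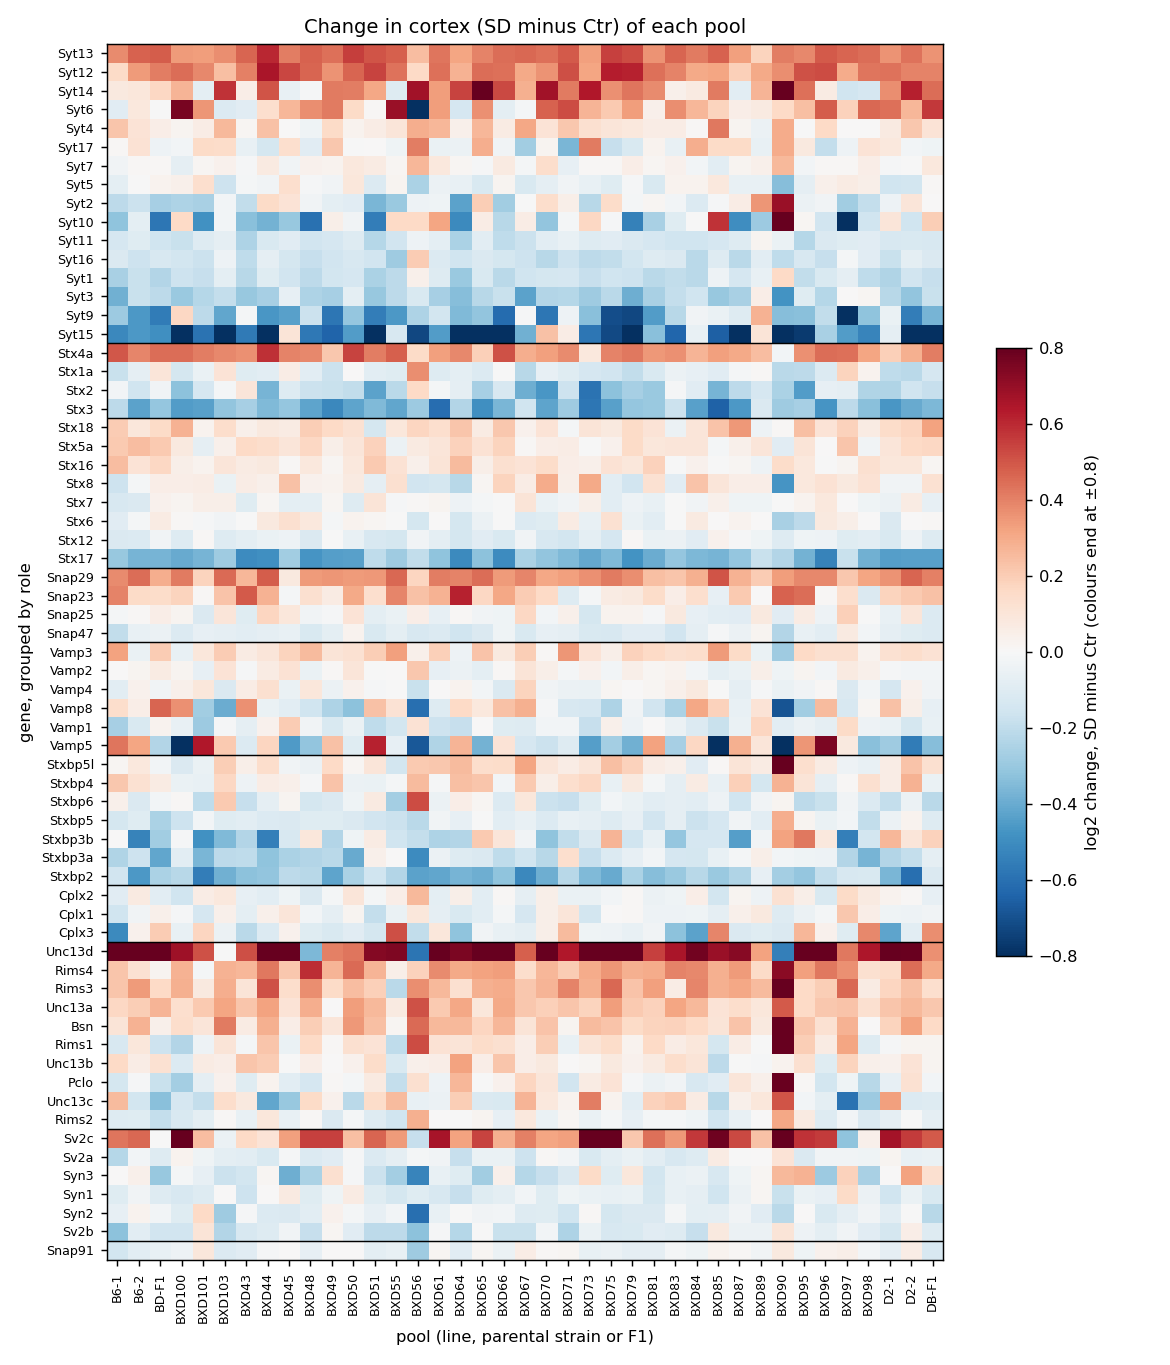
Change in cortex (SD minus Ctr, log2) of 65 of the 67 genes (y axis, grouped by role) in each of the 39 pools (x axis), red for higher and blue for lower in SD. *Syt13*, *Syt12*, *Stx4a* and *Snap29* are red and *Stx3*, *Stx17* and *Stxbp2* blue across nearly all pools, and the columns of BXD90 and BXD56 differ from their neighbours.

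Sequences before the start site are given for 5 of the 8 genes that moved the same way in all pools, to set rising genes (*Bsn*, *Snap29*, *Unc13a*) beside falling ones (*Stx3*, *Stx17*). They are RefSeq windows of the GRCm38.p6 build, read 5′ to 3′ on the strand of the gene, from base 250 to base 6 before the annotated start, and lie upstream of the annotated gene. *Bsn* lies at chr9:108190389-108190633 (minus strand), *Snap29* at chr16:17405750-17405994 (plus strand), *Unc13a* at chr8:71671763-71672007 (minus strand), *Stx3* at chr19:11819409-11819653 (minus strand) and *Stx17* at chr4:48124669-48124913 (plus strand). Capitals mark the motifs searched for on both strands, which were the core TGACG of the cAMP response element, the Egr sites GCGTGGGCG and GCGGGGGCG, the E-box CACGTG, the CCAAT box and the GC box GGGGCGGGG. Overlapping motifs run together in the letters.
Bsn: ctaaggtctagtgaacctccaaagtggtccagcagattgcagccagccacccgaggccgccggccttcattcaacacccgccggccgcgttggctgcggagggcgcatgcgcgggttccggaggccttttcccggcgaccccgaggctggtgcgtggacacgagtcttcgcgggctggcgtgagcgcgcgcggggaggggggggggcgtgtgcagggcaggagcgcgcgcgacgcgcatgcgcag
Snap29: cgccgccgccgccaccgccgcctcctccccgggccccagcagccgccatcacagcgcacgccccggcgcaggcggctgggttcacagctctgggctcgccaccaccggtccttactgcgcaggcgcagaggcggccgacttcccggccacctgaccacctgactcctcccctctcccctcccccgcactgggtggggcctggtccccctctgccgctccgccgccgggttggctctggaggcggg
Unc13a: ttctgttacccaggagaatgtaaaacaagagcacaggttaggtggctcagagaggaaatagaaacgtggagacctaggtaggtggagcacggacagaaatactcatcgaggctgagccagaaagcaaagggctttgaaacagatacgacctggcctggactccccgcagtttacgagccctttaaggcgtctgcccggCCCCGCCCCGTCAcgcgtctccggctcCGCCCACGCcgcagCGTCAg
Stx3: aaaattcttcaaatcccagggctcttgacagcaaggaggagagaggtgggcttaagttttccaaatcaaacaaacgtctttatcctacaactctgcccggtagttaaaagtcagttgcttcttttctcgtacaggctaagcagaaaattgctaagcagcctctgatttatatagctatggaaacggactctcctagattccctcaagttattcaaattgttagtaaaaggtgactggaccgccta
Stx17: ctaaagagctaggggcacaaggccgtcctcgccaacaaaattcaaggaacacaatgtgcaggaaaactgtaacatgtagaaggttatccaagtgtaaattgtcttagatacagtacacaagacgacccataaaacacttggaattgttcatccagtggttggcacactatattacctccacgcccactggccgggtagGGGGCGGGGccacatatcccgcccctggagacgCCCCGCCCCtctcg

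The window of *Unc13a* holds the Egr site GCGTGGGCG, a GC box and 2 TGACG cores, that of *Stx17* holds 2 GC boxes, and those of *Bsn*, *Snap29* and *Stx3* hold none of these letters. GC content was 71.8% for *Bsn*, 77.1% for *Snap29* and 57.6% for *Unc13a*, which rose, and 41.6% for *Stx3* and 51.8% for *Stx17*, which fell. The window of *Stxbp2*, which fell too, had a higher GC content than that of *Unc13a*, so rising and falling genes overlapped. A window was matched for 51 of the 67 genes, with a median GC content of 62.6% (52.2% over all genes). The GC box was in the windows of 33.3% of these members and of 11.3% of all 27025 genes with a window. It was held by 8 of 14 higher and 5 of 20 lower members. In this paragraph all genes means these 27025, whether or not they are listed in cortex, so the members are set against a wider set. The E-box was in 15.7% (all genes, 6.67%), the CCAAT box in 35.3% (all genes, 37.1%), the core TGACG in 21.6% (all genes, 19.3%) and the full cAMP response element TGACGTCA, which contains that core, in 3.92% (all genes, 1.71%). The Egr site GCGTGGGCG was in 1.96% (all genes, 0.599%) and GCGGGGGCG in 9.80% (all genes, 2.82%). Of the parts of the RE1 silencer element, the left part TTCAGCACC was in 1.96% (all genes, 0.348%) and the right part in none (all genes, 0.115%). *Syt12* and *Syt13* had no window, and that of *Stxbp2* overlaps other transcript models and is not printed.

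In liver, called changes were mostly falls, and 19 of the 45 listed members had a mean of fewer than 100 reads per library. Of the 45 genes listed, 5 were higher, 17 lower and 23 did not pass, where 21.5% of all 14107 genes were higher and 22.6% lower (44.2% called). Their median log2 fold change was -0.088 (all genes, -0.0015). The 22 members without a liver value include *Snap25*, *Bsn*, *Cplx1*, *Rims1*, *Sv2a*, *Syn2* and *Syt13*. Of the 4 neuronal markers, *Map2* and *Rbfox3* were listed in liver, with a summed level of 3.25 to 9.65 CPM over all libraries, and none of the 6 GABAergic markers was. Neither of the listed neuronal markers passed the test between conditions. Of 2 listed oligodendrocyte markers (*Mbp* and *Mag*), 1 was lower in SD, with a summed level of 1.81 to 6.53 CPM in Ctr (median 4.27) and 1.88 to 5.09 in SD (median 3.30), and their part in the falls of members in liver was not tested.

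*Syt11*, a synaptotagmin that does not bind calcium and acts on endocytosis, had the largest change in liver. Its levels were 1.80 to 3.68 log2 CPM in Ctr (median 2.84) and 2.75 to 4.77 in SD (median 4.04). The ranges overlapped, but it rose in 39 of 39 pools, by 1.27 ± 0.10 (adjusted p = 6.89e-19, mean of 80.5 reads). In cortex, where it was among the 8 most abundant members per length, *Syt11* fell by 0.13 ± 0.013. *Snap29* rose in liver by 0.31 ± 0.023 (38 of 39 pools, adjusted p = 4.54e-20), from 6.37 to 6.94 in Ctr (median 6.58) to 6.73 to 7.10 in SD (median 6.90), close to its rise in cortex. *Stx2* rose by 0.22 ± 0.040 (32 of 39 pools, adjusted p = 3.48e-06) and *Snap23* by 0.17 ± 0.021 (36 of 39 pools, adjusted p = 2.00e-10).

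Large falls in liver were those of *Unc13a*, *Syn3* and *Syt1*. *Syt1* had levels of 5.43 to 6.77 in Ctr (median 6.04) and 4.36 to 5.73 in SD (median 5.19), and fell in 39 of 39 pools, by 0.82 ± 0.065 (adjusted p = 1.12e-18, mean of 353.7 reads). *Syn3*, the synapsin expressed earliest in development, fell in 39 of 39 pools as well, by 1.11 ± 0.091 (adjusted p = 4.55e-18), from 2.20 to 3.75 in Ctr (median 3.21) to 0.89 to 2.85 in SD (median 2.10). *Unc13a* fell by 1.22 ± 0.23 (37 of 39 pools, adjusted p = 6.97e-06) on a mean of 12.6 reads, with 3 libraries at 0 reads. Calls for *Syt11*, *Unc13a* and *Syn3* thus rest on fewer than 100 reads per library. In all, 3 members moved the same way in all 39 liver pools (2.4% of all genes). The lowest changes of *Syt1* (-1.49) and *Syn3* (-2.16) were in BXD70, whose SD library had the fewest reads in liver (4681101). Among other members, BXD70 also held the lowest change of *Stxbp5* (-1.27, median 0.082), *Pclo*, *Rims3*, *Stx16*, *Stxbp4*, *Syt7* and *Unc13b*. It held the highest change of *Stxbp2* (0.059), *Stx4a* (0.13), *Snap47*, *Stx8*, *Syn1*, *Vamp3*, *Vamp5* and *Vamp8*. These were not only genes with few reads, since *Stxbp2* had a mean of 711 reads per library and *Stxbp5* of 532. The liver fits were not repeated without BXD70.

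Whether liver and cortex of a pool responded differently was then tested directly, as the response in liver less that in cortex. Of the 45 genes, 9 differed towards liver and 14 towards cortex, where 57.6% of the 12695 genes listed in both tissues differed, 28% and 29.6% in the respective directions. *Syt11* differed most in the first direction, by 1.40 ± 0.057 (adjusted p = 9.24e-24), followed by *Syt15* (0.79 ± 0.16, adjusted p = 5.10e-05, with 5.56 reads per library in liver) and *Stx2* (0.42 ± 0.039, adjusted p = 2.03e-12). In the other direction, *Unc13a* differed by -1.44 ± 0.14 (adjusted p = 1.45e-11) and *Syn3* by -1.04 ± 0.075 (adjusted p = 8.63e-16). *Stx4a* was called in both tissues in opposite directions, 0.35 in cortex and -0.30 in liver. *Snap29* and *Stxbp2* were called in both tissues in the same direction, 0.34 and 0.31 for *Snap29* and -0.30 and -0.32 for *Stxbp2*, and their differences did not pass.

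**Figure D4:**
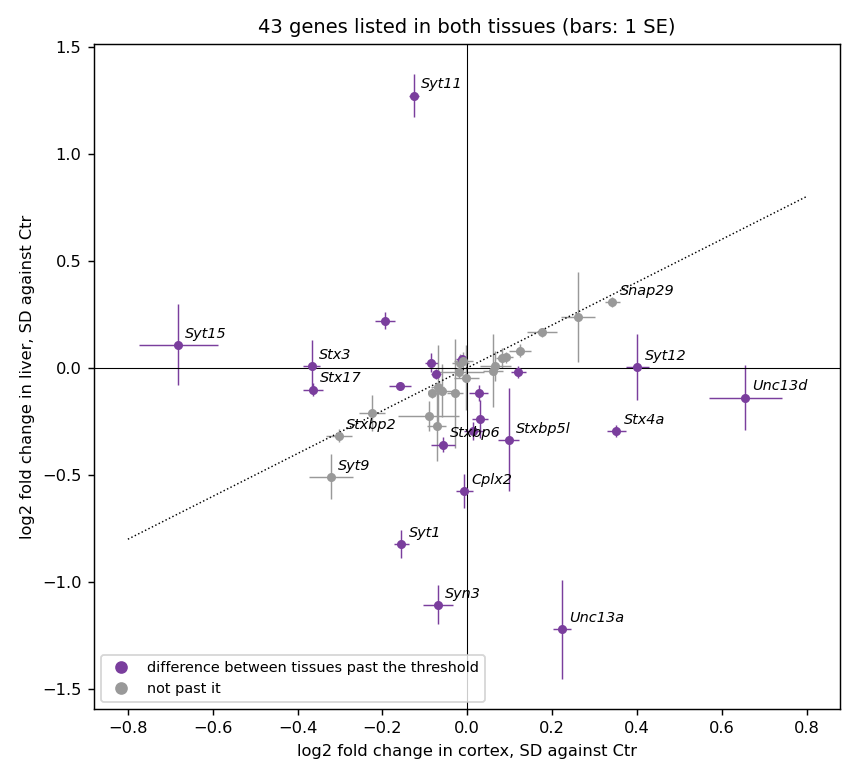
Log2 fold change (SD against Ctr) in cortex (x axis) and in liver (y axis) of 43 of the 45 genes listed in both tissues, with bars of 1 SE and a dotted line where the changes are equal. *Syt11* lies at 1.27 in liver and -0.13 in cortex, *Unc13a* at -1.22 and 0.22, and *Snap29* lies near the line.

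How far the members differ between lines was described without a test, since each line has 1 library per condition. The median SD over the 39 Ctr pools was 0.12 log2 CPM for the members and 0.14 for all genes. It was 0.11 for the members without BXD90, and 0.097 without BXD90 and BXD56 (all genes, 0.12). The change of a pool had a median SD of 0.12 over the members (all genes, 0.14). The share of the variance that the Ctr and SD pools of a line have in common had a median of 41.1% (all genes, 32.4%), and 50.8% without those lines (all genes, 37.6%). Between the repeated pools of a parental strain, the median SD was 0.068 (all genes, 0.092), from 4 pairs. By the study's methods, these pools were collected at the start and the end of the collection phase, so this SD also holds any difference between those times.

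Members with the widest spread were of low abundance. *Unc13d* had an SD of 0.44 in Ctr, *Syt10* (a sensor for the release of insulin-like growth factor 1 in the olfactory bulb) of 0.43, *Vamp5* (of muscle and membrane traffic) of 0.37, *Syt15* of 0.36, *Syt14* of 0.32 and *Sv2c* of 0.31. The repeated parental pools differed with an SD of 0.10 for *Unc13d*, 0.28 for *Syt10*, 0.20 for *Vamp5* and 0.33 for *Syt15*, so that the spread of *Syt15* between lines is close to that between pools of 1 strain. *Syt14* and *Sv2c* were lowest in BXD90, and their SD was 0.24 and 0.25 without it. *Syt14* had an SD of 0.22 without BXD90 and BXD56. At the other end, *Snap47* had an SD of 0.046, *Stx7* of 0.049 and *Stx12* of 0.051, the last pair being syntaxins of endosomes, and these are near the SD of their repeated pools (0.037, 0.059 and 0.046). *Vamp2*, with no call for SD, had the highest line share of all members, 80.8%, with an SD of 0.10 in Ctr and 0.061 for the change.

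Some members differed between the parental strains themselves. In the 8 parental cortex libraries, 12 genes were higher and 12 lower in D2 than in B6, and 43 did not pass (25.5% of all genes called, 11.6% higher and 13.9% lower). The test (limma, 4 libraries per strain, with condition in the fit) treats the pools of a strain as replicates. These pools came from the start and the end of the collection phase. *Syt10* had levels of 1.72 and 2.09 in Ctr and 1.40 and 2.01 in SD in B6, and of 2.53 and 2.82 in Ctr and 2.62 and 2.67 in SD in D2. All D2 values lay above all B6 values, a difference of 0.86 ± 0.14 (adjusted p = 3.48e-04), and *Syt10* did not pass the test for SD. *Unc13d* was higher in D2 by 0.54 ± 0.15 (adjusted p = 0.0142). In Ctr it had levels of 0.17 and 0.24 in B6 and of 0.69 and 0.89 in D2, and both F1 hybrids (0.59 and 0.89) lay above B6.

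*Syt2*, the fast sensor of parvalbumin interneurons and brainstem synapses, was higher in D2 by 0.30 ± 0.064 (adjusted p = 0.00321). *Stxbp4*, known from insulin-regulated traffic, was higher by 0.26 ± 0.051 (adjusted p = 0.00121) and *Stxbp2* by 0.27 ± 0.074 (adjusted p = 0.0147). The call of *Stxbp2* was lost without the second D2 pool in Ctr (0.25, adjusted p = 0.0537), the second B6 pool in SD (0.21, adjusted p = 0.063) or the first D2 pool in SD (0.24, adjusted p = 0.0538). Lower in D2 were *Vamp8* (of endosomes and granules, -0.39 ± 0.10, adjusted p = 0.00950), *Syt9* (-0.38 ± 0.096, adjusted p = 0.00818), *Rims4* (-0.28 ± 0.065, adjusted p = 0.00466), *Stx6* (of the trans-Golgi network, -0.22 ± 0.043, adjusted p = 0.00143) and *Syt17* (-0.22 ± 0.053, adjusted p = 0.00749). For *Stx6*, the B6 levels were 6.47 and 6.37 in Ctr and 6.38 and 6.36 in SD, and the D2 levels 6.27 and 6.14 in Ctr and 6.16 and 6.14 in SD, without overlap. *Stxbp2* and *Syt9* fell with SD and *Rims4* rose with SD, so these genes carried a difference between strains and one between conditions.

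**Figure D5:**
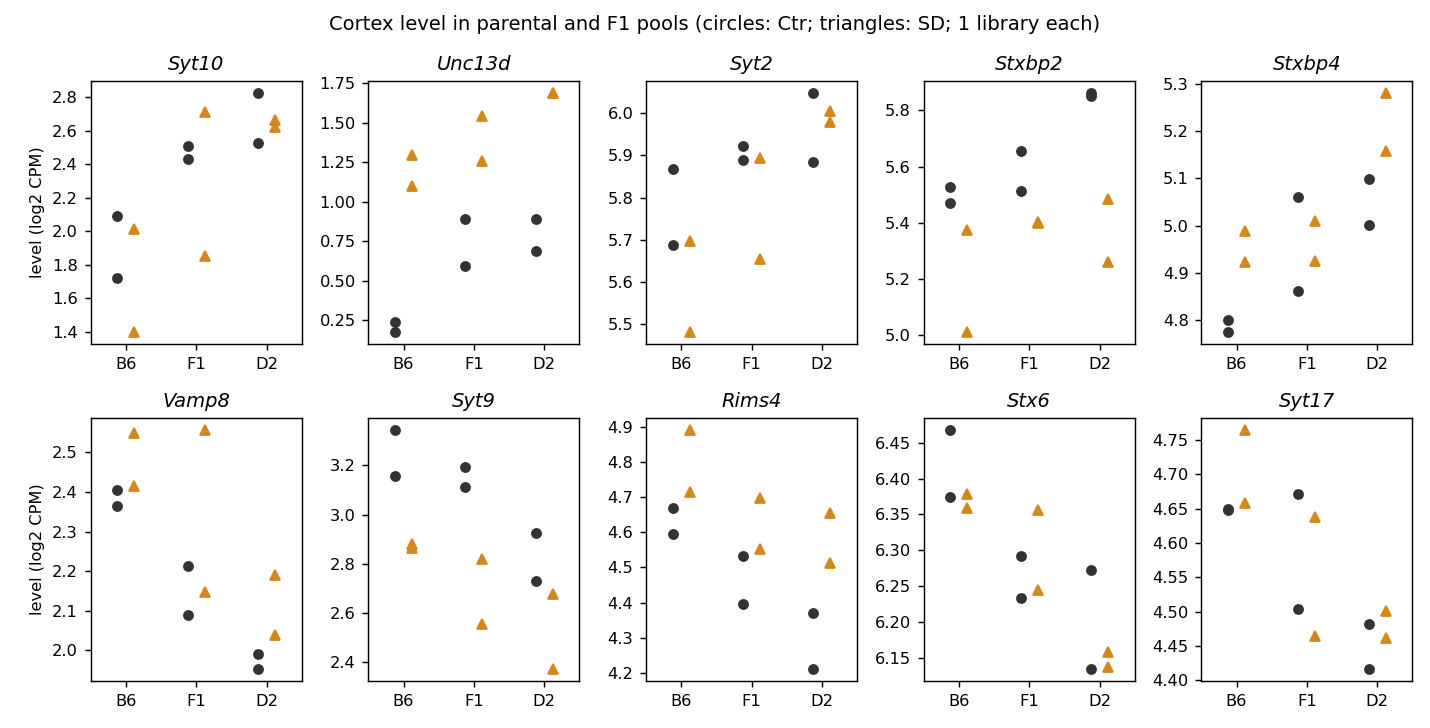
Cortex levels in log2 CPM (y axis) of the 5 genes most higher and the 5 most lower in D2 than in B6, for 2 pools each of B6, F1 and D2 (x axis), with circles for Ctr and triangles for SD. *Syt10* runs from 1.40 to 2.09 in B6 and from 2.53 to 2.82 in D2.

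Other genes of release and recycling in cortex were taken from 2 lists. Of 51 listed genes for vesicle transport, tethering and transmitter loading, 12 rose, 24 fell and 15 did not pass, with a median of -0.046 (all genes, 33% higher, 35.4% lower and a median of -0.0097). Without BXD90 and BXD56, 8 rose and 24 fell, and the shares of all genes were not counted for that set of pools. *Doc2b*, a calcium sensor for spontaneous release, rose by 0.56 ± 0.083 (35 of 39 pools, adjusted p = 7.84e-09), and its relative *Doc2a* fell by 0.29 ± 0.034 (39 of 39 pools, adjusted p = 4.22e-12). The active zone gene *Erc1* (0.25), *Rph3a* (rabphilin, a Rab3 effector, 0.24) and the glutamate transporter gene *Slc17a6* (0.17) rose. *Sytl2* (a Rab27 effector), which fell by 0.71 ± 0.039 in 39 of 39 pools (adjusted p = 3.91e-28), the scaffold gene *Lin7b* (-0.33) and the liprin gene *Ppfia4* (-0.31) fell.

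Of 29 genes for endocytosis and vesicle recycling, 12 rose, 8 fell and 9 did not pass, with a median of 0.0033, where 68.4% of all genes were called. *Synj2*, which encodes a phosphoinositide phosphatase that strips coats from vesicles, rose by 0.71 ± 0.034 (39 of 39 pools, adjusted p = 2.36e-32). *Sh3gl1* (endophilin-A2) rose by 0.26, *Itsn1* (intersectin-1) by 0.23 and *Ap2b1* (of the clathrin adaptor AP-2) by 0.20. The falls were small, with *Sh3gl2* (endophilin-A1) at -0.090, *Ap2a1* at -0.076, *Ap2m1* at -0.059 and *Dnm1* (dynamin-1) at -0.058.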

How the data were processed

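Tables of log2 CPM deposited by the authors for cortex and liver were analysed. By the study's methods and the submitters' processing notes, the authors' stranded mRNA libraries of pooled RNA were sequenced, aligned to mm9 with STAR, counted on RefSeq genes with HTSeq, and normalized by edgeR's TMM method. Undoing the logarithm and a prior count near 1 read returned integer read numbers (tolerance 0.02 reads) for 100% of values checked, from which came depth, RPKM and the voom alternative. Gene lengths came from the mm9 annotation, and pools were grouped by their labels.

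SD and Ctr were compared over 39 pools per condition with limma 3.58.1 in R 4.3.3 (lmFit, eBayes with a variance trend), two-sided, with Benjamini-Hochberg adjustment over all genes listed in the tissue and a threshold of 0.05. The steps were tested on simulated data. Same-line Ctr and SD pools deviated together (lowest r = 0.299 in cortex, 0.169 in liver). In each tissue, 37 of 39 pools were closest to the pool of their own line. The line as a replicate block was an alternative. By the study's methods, Ctr and SD mice of a line were to be paired within a cohort. What same-line pools share can thus come from line or cohort, which cannot be told apart here. The members, the lists of other genes, the tests and the naming rule were chosen with earlier results of these data known. Named were 14 canonical genes and up to 10 rises and 10 falls in cortex (called, same direction in at least 31 pools), up to 4 each in liver, 3 each between tissues, 5 each between strains, 6 widest and 3 narrowest spreads and 4 each per other list. Genes outside this rule, such as *Syt7*, *Snap23*, *Vamp3* and the tomosyns in cortex, were named after their values were seen. Alternatives without BXD90, or without BXD90 and BXD56, were chosen after seeing the data. P-values measure the spread between pools. Counts cover all 67 members, but single values of 2 members and a marker gene are not reported here.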

Additional observations from a re-analysis of the deposited data

Results flagged for a closer look

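The change with SD differed between liver and cortex, by the paired limma test of the difference, for the 5 members named for it. On the log2 scale, liver minus cortex, the difference was 1.40 for *Syt11*, 0.79 for *Syt15* and 0.42 for *Stx2*. It was -1.44 for *Unc13a* and -1.04 for *Syn3*. *Syt11*, *Stx2* and *Unc13a* were called in both tissues in opposite directions, whereas *Syt15* was called in cortex alone and *Syn3* in liver alone. *Syt15* and *Unc13a* had means of 5.56 and 12.6 reads per liver library. Cortex libraries were ranked by transcript length, and each parental library was left out in turn. The liver libraries were not ranked in this way, and BXD70 was not left out of any liver fit.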

How the results depend on the processing

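Counts of called members in cortex and liver stayed within 1.5 times of those reported under all alternatives run, including the line as a replicate block (24 higher and 26 lower in cortex, 5 and 17 in liver), voom, another prior count, other scalings and the pools without BXD90 (21 and 24 in cortex). The block added calls in cortex for *Rims1* (adjusted p = 0.0133), *Stxbp4*, *Stxbp6*, *Syn3*, *Syt5*, *Syt7* and *Vamp1*, and changed no other call there or in liver. Quantile normalization gave 20 higher and 29 lower members in cortex and called *Cplx1* (-0.052, adjusted p = 0.0345). Shares of all genes were counted for the reported fits and the line block in cortex, not for the other alternatives. No named gene with a call reversed its direction. A change of sign in a named gene without a call was counted only if it then passed, and none did. *Pclo*, for example, gave -0.0025 over the 39 pools and a mean of 0.13 in the BXD/TyJ lines. With the 33 BXD/RwwJ lines alone, 5 members rather than 9 differed towards liver between the tissues, and 6 with the unpaired interaction (no replicate block). Between the parental strains, 7 genes were higher in D2 with eBayes without a trend. Ctr libraries alone gave 6 higher and 5 lower, and SD libraries alone 5 higher and 0 lower (limma; 11 lower at an unadjusted p under 0.05). These use 4 libraries instead of 8. With the collection phase as a replicate block, 13 were higher and 14 lower. Leaving out 1 parental library in turn gave 8 to 13 higher and 9 to 12 lower, and only *Stxbp2*, of the named genes, then missed the threshold, in 3 of 8 cases. Depth limits calls on *Syt15*, *Vamp5*, *Unc13d* and *Stxbp3b* in cortex and on members with under 100 reads in liver.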
